A study of Mus musculus with 20 samples.

Results

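The cytosolic ribosomal proteins are the protein parts of the ribosome that translates nuclear-encoded mRNA, and their genes were followed here in the kidneys of Col4a3-/- (Alport) mice. The genes were chosen by symbol alone, as protein-coding genes named Rps or Rpl with a number (and an optional a, x or l), Rpsa, or Rplp0 to Rplp2. This gave 80 genes out of 47069 in the count table, 31 of the small subunit and 49 of the large subunit. Of these, 78 passed the filter on low counts and were tested. The remaining 2, Rpl10l and Rpl39l, had a mean count per mouse of 0 and 0.35, respectively.

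Total RNA from whole kidney was sequenced from 20 male mice at 15 weeks of age, all of the strain 129SJ x C57Bl/6J, by the methods an F1 hybrid. The WT group (n = 5) was untreated. The other 15 mice carried the homozygous Col4a3 mutation, which disrupts a chain of the type IV collagen of the glomerular basement membrane, and were treated from 5 weeks of age. The Veh group (n = 6) received weekly subcutaneous PBS, the Anti-miR-21 group (n = 6) received lademirsen every week, an antisense oligonucleotide against miR-21, at 50 mg/kg in PBS, and the ACEi group (n = 3) received ramipril, an angiotensin-converting enzyme inhibitor. The ramipril dose is 11 mg/L of drinking water in the sample labels and 4 mg/kg in the deposited library table. By the study's methods the ACEi mice were also injected with PBS, which the labels do not state. Estimated counts per mouse summed to between 28474301 and 29479629, so that the depth was nearly equal. The disrupted gene Col4a3 had 194 to 237 CPM in WT mice and 27.9 to 74.8 CPM in the 15 Col4a3-/- mice, where CPM is the count scaled to a common library size with edgeR's TMM factors, and the groups did not overlap. Markers of proximal tubule summed to at least 1291 CPM in every mouse, as the labelled tissue would hold. The libraries ran on 2 flow cells, 13 libraries on cell A and 7 on cell B, with each group on both.

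Each ribosome holds a single copy of nearly every ribosomal protein, and the genes are expressed in all cells and are usually regulated together. Their mRNAs typically begin with a run of pyrimidines, the 5' terminal oligopyrimidine (TOP) tract, through which mTORC1 and LARP1 control their translation. A few members have paralogues with restricted expression, and several have a known role outside the ribosome, such as Rpl5 and Rpl11, which bind Mdm2 and stabilise p53.

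The annotated start sites of members whose values are described below are shown with 30 bases on each side (RefSeq, GRCm38.p6, 5' to 3' on the strand of the gene), because a TOP tract is read from the first bases of the mRNA. The annotated first base is base 31, and capitals mark the longest unbroken run of C and T of at least 6 bases that touches positions -5 to 10 around the start. The 6 windows are examples, 4 of genes that rose in Veh and 2 of genes that fell after TMM scaling. The order is that of the results, and Rps27 and Rps27l are paralogues whose counts moved in opposite directions after TMM scaling.
Rps9 (chr7:3704011-3704070, + strand): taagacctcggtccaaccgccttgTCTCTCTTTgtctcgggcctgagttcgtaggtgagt
Rps12 (chr10:23787180-23787239, - strand): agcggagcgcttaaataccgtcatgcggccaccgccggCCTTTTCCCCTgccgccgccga
Rpl12 (chr2:32961682-32961741, + strand): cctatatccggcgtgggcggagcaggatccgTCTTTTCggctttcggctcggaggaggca
Rps27 (chr3:90213619-90213678, - strand): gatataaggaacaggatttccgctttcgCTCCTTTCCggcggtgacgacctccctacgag
Rps27l (chr9:66946056-66946115, + strand): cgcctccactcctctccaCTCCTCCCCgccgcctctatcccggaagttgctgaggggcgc
Rpl3l (chr17:24727796-24727855, + strand): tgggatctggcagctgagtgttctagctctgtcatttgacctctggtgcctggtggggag
Rps9, Rps12, Rpl12 and Rps27 held such a run across the start or within 10 bases after it, whereas in Rps27l the run ended before the first base and at the most upstream annotated start of Rpl3l there was none. Rps4x and Rplp0, which also rose in Veh and are not printed, held no such run either, with longest runs of 4 bases. Promoter windows from 250 bases before to 50 bases after the start were at hand for 60 of the 80 genes. A pyrimidine run by the same rule was found in 34 of the 60 (56.7%) and in 28.5% of all 27025 genes with a window. The letters CCGGAAG, bound by ETS factors, stood on either strand of the window in 41.7% of the members and 9.93% of all genes, and TATAAA in 10% of the members and 15.7% of all genes. A match is a description of the sequence only.

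The 80 genes lie on 19 chromosomes, with 14 on chromosome 7. Small nucleolar RNAs, which guide chemical modification of ribosomal RNA, are often encoded in introns of ribosomal protein genes. At least 1 annotated snoRNA gene lay inside 29 of the 78 tested members on the same strand (37.2%), against 1.51% of the 15339 protein-coding genes tested. Exon bases were shared with another annotated gene at 20 of the 80, and the counting is not stated to use strand.

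The first question was what share of the counted kidney RNA fell on the ribosomal protein genes. Their share of all estimated counts was about 2-fold higher in Veh than in WT mice and lay in between in both treated groups. In WT mice it was 1.15%, 1.18%, 1.21%, 1.31% and 1.35%. In Veh mice it ranged from 2.02% to 3.22% with a median of 2.5%. In Anti-miR-21-treated mice it ranged from 1.55% to 1.96% with a median of 1.69%. The ACEi-treated mice had 1.54%, 1.55% and 1.82%. Thus every Veh mouse was above every other mouse, every WT mouse was below every other mouse, and the treated groups overlapped each other. The means were 1.24% ± 0.0874 (SD, n = 5) in WT, 2.56% ± 0.46 (SD, n = 6) in Veh, 1.71% ± 0.139 (SD, n = 6) with Anti-miR-21 and 1.64% ± 0.157 (SD, n = 3) with ACEi. The mean in Veh was 2.06 times that in WT. The small-subunit genes alone had a mean share of 0.521% in WT and 1.12% in Veh, and the large-subunit genes 0.721% and 1.45%.

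The share moved together with the make-up of the rest of the library. Transcripts of the mitochondrial genome made up 12.1% to 13.9% of counts in WT mice, 5.95% to 8.14% in Veh, 9.45% to 12.6% with Anti-miR-21 and 9.49% to 10.5% with ACEi. With those counts left out of the total, the mean share of the ribosomal protein genes was 1.43% in WT and 2.76% in Veh, a ratio of 1.93. Veh mice also stood above WT mice within each flow cell. Among libraries of cell A the WT mice lay between 1.15% and 1.21% and the Veh mice between 2.48% and 3.22%. Among those of cell B the WT mice lay between 1.31% and 1.35% and the Veh mice between 2.02% and 2.16%. The treated groups changed order: on cell A the Anti-miR-21 mean was 1.71% and the 1 ACEi mouse had 1.82%. On cell B the 1 Anti-miR-21 mouse had 1.72% and the ACEi mean was 1.55%. The distance between Veh and WT was smaller on flow cell B, a difference that was not tested.

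**Figure D1:**
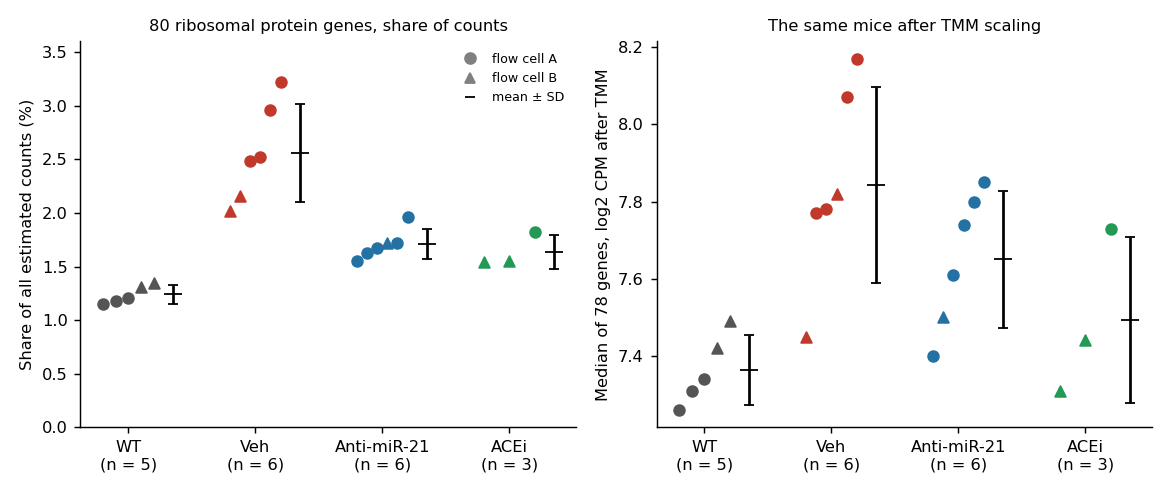
Ribosomal protein genes in each mouse. Left, the share of all estimated counts (%) on the 80 genes; right, the median log2 CPM of the 78 tested genes after TMM scaling. Circles are libraries of flow cell A, triangles of flow cell B, and the bars give the mean ± SD of each group. By share, the 6 Veh mice (2.02% to 3.22%) lie above all others, while after TMM scaling the lowest Veh mouse, A20, at 7.45 lies below the highest WT mouse at 7.49.

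To compare the genes between groups, the libraries were scaled with edgeR's TMM method, which assumes that most genes do not differ, and tested with its quasi-likelihood test across all 17622 genes (Benjamini-Hochberg, adjusted p under 0.05). Between Veh and WT, 65 of the 78 ribosomal protein genes had risen in Veh and 3 had fallen. This is 83.3% of the members called higher, against 39.0% of all genes tested, and 3.85% called lower, against 34.0% of all genes. By these calls most genes differed between Veh and WT, so the assumption of TMM was not met in this comparison. The members' log2 fold changes had a median of 0.48, with quartiles at 0.37 and 0.60, and that of all genes was 0.07. The 3 that fell were Rpl3l, Rps27l and Rpl5, of which Rps27l and Rpl5 went the other way with library totals in place of TMM, by 0.09 and 0.27. The other 10 did not pass, among them Rpl7a, Rpl15, Rpl41 and Rps2. The small subunit had 27 of 31 genes higher, at a median of 0.57, and the large subunit 38 of 47, at a median of 0.44.

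For most members the WT and Veh mice still overlapped. The TMM-scaled CPM of all Veh mice lay above those of all WT mice for 30 of the 78 members (38.5%), against 28.8% of all genes. They lay below for 2 members, Rpl3l and Rps27l (2.56%, against 26.1% of all genes). The median log2 CPM over the members was 7.37 ± 0.09 (SD, n = 5) in WT and 7.84 ± 0.25 (SD, n = 6) in Veh. Within flow cell A alone, the same test called 71 members higher (91.0%, against 35.1% of all genes) and 2 lower with a median of 0.68. Within flow cell B alone, which held 2 WT and 2 Veh mice, it called 7 higher (8.97%, against 26.1% of all genes) and 3 lower (3.85%, against 24.0%) with a median of 0.19, so that there the members were called higher less often than all genes. The difference between the flow cells was not tested.

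Among proteins of the small subunit, Rps9, which lies near the mRNA entry channel, had 347, 346, 370, 363 and 388 CPM in the WT mice and 485 to 800 CPM in the Veh mice, with a median of 608. It had 435 to 496 CPM with Anti-miR-21, with a median of 449, and 401, 431 and 432 CPM with ACEi. No Veh mouse overlapped a WT or an ACEi-treated mouse, and a single Anti-miR-21-treated mouse, A8, lay above the lowest Veh mouse. The log2 fold change was 0.80 (SE 0.10, adjusted p = 5.2e-07, edgeR) in Veh against WT. It was -0.46 (SE 0.10, adjusted p = 0.00037) with Anti-miR-21 and -0.58 (SE 0.12, adjusted p = 0.00075) with ACEi, each against Veh. Rps12 was at 255 to 291 CPM in WT and 321 to 621 CPM in Veh, with log2 fold changes of 0.73, -0.46 and -0.59 in the same 3 comparisons, all past the threshold. Rps4x, the X-linked Rps4 gene of the mouse, rose by 0.84 (SE 0.10) in Veh and fell with Anti-miR-21 (-0.42) and with ACEi (-0.48). Rps16 rose by 0.87 (SE 0.17) in Veh, whereas its differences of -0.38 with Anti-miR-21 (adjusted p = 0.0502) and -0.44 with ACEi (adjusted p = 0.0889) did not pass.

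Rps6 is the ribosomal protein that the mTORC1-dependent S6 kinases phosphorylate. It had a median of 51.4 CPM in WT and 95.3 CPM in Veh, a log2 fold change of 0.81 (SE 0.27, adjusted p = 0.0103, edgeR). It did not pass with Anti-miR-21 (-0.18, adjusted p = 0.555) or with ACEi (-0.09, adjusted p = 0.835), and the ACEi mice themselves had 47.0, 56.8 and 159 CPM. Most of the counts that match Rps6 lay on its pseudogenes, and the values with these added are given further on. Rpsa, also known as the laminin receptor, rose by 0.45 in Veh and fell by 0.40 on the log2 scale with ACEi (adjusted p = 0.0177, a call lost without the Veh mouse A1 or the ACEi mice A11 or A13, at -0.29, -0.35 and -0.41), and its value with Anti-miR-21 was -0.23 (adjusted p = 0.0616). Rps27a, which is made as a fusion with ubiquitin, rose by 0.62 in Veh (adjusted p = 0.00042), with values of -0.27 and -0.38 under the treatments that did not pass. Rps15a rose by 0.61 and fell under both treatments, by 0.29 and 0.36 on the log2 scale. Without the Veh mice A1 or A9 neither of these falls passed, at -0.21 and -0.24 with Anti-miR-21 and -0.27 and -0.30 with ACEi, nor did the latter without the ACEi mice A11 (-0.25) or A13 (-0.33).

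In the large subunit, Rpl12 had the highest log2 fold change of the 78 members between Veh and WT. It encodes a protein at the base of the ribosomal stalk. Its WT mice had 5.66, 6.07, 7.56, 6.62 and 5.45 CPM, and its Veh mice had 13.7 to 23.7 CPM with a median of 18. With Anti-miR-21 it had 8.23 to 11.6 CPM with a median of 10.0, and with ACEi 10.6, 9.77 and 10.4 CPM. Every Veh mouse lay above every other mouse, and every WT mouse below. The log2 fold change was 1.55 (SE 0.14, adjusted p = 2.4e-09, edgeR) in Veh against WT. It was -0.85 (SE 0.12, adjusted p = 7.2e-06) with Anti-miR-21 and -0.84 (SE 0.16, adjusted p = 0.0003) with ACEi. The gene (chr2:32961559-32965345) shares exon bases with Lrsam1, and most of the counts that match Rpl12 lay on its pseudogenes, as described further on.

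The stalk proteins Rplp0, Rplp1 and Rplp2, which recruit the elongation factors, rose in Veh by 0.57 (SE 0.09), 0.42 (SE 0.11) and 0.58 (SE 0.12), respectively. Rplp0 ranged from 482 to 559 CPM in WT and had a median of 767 and a highest value of 951 CPM in Veh, with every Veh mouse above every WT mouse. All 3 fell with ACEi (-0.47, -0.43 and -0.45), and Rplp0 and Rplp2 fell with Anti-miR-21 (-0.34 and -0.28), while the value of Rplp1 was -0.21 (adjusted p = 0.0878). The calls of Rplp2 rested on single mice: without the Veh mouse A1 its values were -0.18 with Anti-miR-21 and -0.34 with ACEi, and neither passed. Rpl11, which like Rpl5 binds Mdm2, rose by 0.34 (SE 0.09) in Veh and fell by 0.20 with Anti-miR-21 (adjusted p = 0.0413) and by 0.31 with ACEi (adjusted p = 0.0188), and neither fall passed without the Veh mouse A1 (-0.11 and -0.21) or A9 (-0.15 and -0.26). Rpl22 rose by 0.46 (SE 0.09) in Veh and fell with ACEi (-0.39, or -0.33 and not called without the ACEi mouse A13), and its value with Anti-miR-21 was -0.18 (adjusted p = 0.0831). Rpl10, whose incorporation is a late step in the maturation of the large subunit, rose by 0.84 (SE 0.15) in Veh, and its values of -0.30 and -0.20 under the treatments did not pass.

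Both treatments were then compared with Veh, and these comparisons share the 6 Veh mice. With Anti-miR-21, 35 of the 78 members were lower (44.9%, against 30.5% of all genes) and 2 were higher (2.56%, against 28.8% of all genes), with a median log2 fold change of -0.25 where that of all genes was -0.04. With ACEi, 52 were lower (66.7%, against 19.1% of all genes) and 1 was higher (1.28%, against 21.0%), with a median of -0.38 where that of all genes was -0.05. The 2 that rose with Anti-miR-21 were Rpl3l and Rps27l, of which Rps27l did not pass with library totals (0.07), and the 1 that rose with ACEi was Rpl3l. Rpl3l was also the 1 member above all Veh mice with either treatment, where 18.6% and 19.8% of all genes were. All CPM of the treated mice lay below all those of Veh for 1 member, Rpl12, with Anti-miR-21, against 17.9% of all genes, and for 12 members with ACEi (15.4%, against 18.8% of all genes), so that most members still overlapped Veh after TMM scaling.

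Single mice decided part of these counts. With Anti-miR-21, 16 members were lower without the Veh mouse A1 (20.5%, against 27.8% of all genes) and 17 without the Veh mouse A9 (21.8%, against 27.7%), so that the members were then called lower less often than all genes. Without the Veh mouse A20 it was 54 (69.2%, against 28.4%). With only the Veh and Anti-miR-21 mice in the fit it was 25, a share of 32.1% near the 31.5% of all genes. The median of the members was -0.15 without A1 and -0.29 without A20, the ends of the range over single mice left out. With ACEi, 18 members were lower without the ACEi mouse A11 (23.1%, against 13.8% of all genes) and 26 without A13 (33.3%, against 11.1%). It was 30 without the Veh mouse A1 (38.5%, against 15.5%) and 31 without A9 (39.7%, against 15.4%). With only the Veh and ACEi mice in the fit it was 30 (38.5%, against 21.2%). The ACEi comparison within flow cell B alone (2 mice in each group) called 0 members by edgeR, where 5.08% of all genes were higher and 2.27% lower, with 17 at an unadjusted p under 0.05 and a median of -0.25. Within flow cell A alone, the Anti-miR-21 comparison called 54 lower (69.2%, against 26.7% of all genes), and ACEi could not be tested there, with 1 mouse. With a term for the flow cell in the fit, 45 members were lower with Anti-miR-21 (57.7%, against 30.2% of all genes), at a median of -0.26. With ACEi it was then 42 (53.8%, against 17.4%), at a median of -0.32. Which treatment had more members called lower thus depended on whether the flow cell was in the fit.

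The treatments were also compared directly. Of the 78 members edgeR called 0 higher and 0 lower in Anti-miR-21-treated against ACEi-treated mice, where 0.363% of all genes were called higher and 0.221% lower. The count at an unadjusted p under 0.05 was 0 as well, or 5 with only these groups in the fit, and DESeq2 and limma on log2(FPKM + 1) called 0. With library totals edgeR also called 0, where 0.238% of all genes were higher and 0.176% lower. The log2 fold changes ranged from -0.09 to 0.30 with a median of 0.13, and 74 of the 78 were above 0. The median was 0.22 without the ACEi mouse A23, with 78 above 0 and 14 at an unadjusted p under 0.05, and 0.07 without A11, with 62 above 0. A term for the flow cell in the fit gave 0.07, and library totals gave 0.06, each with 65 above 0.

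**Figure D2:**
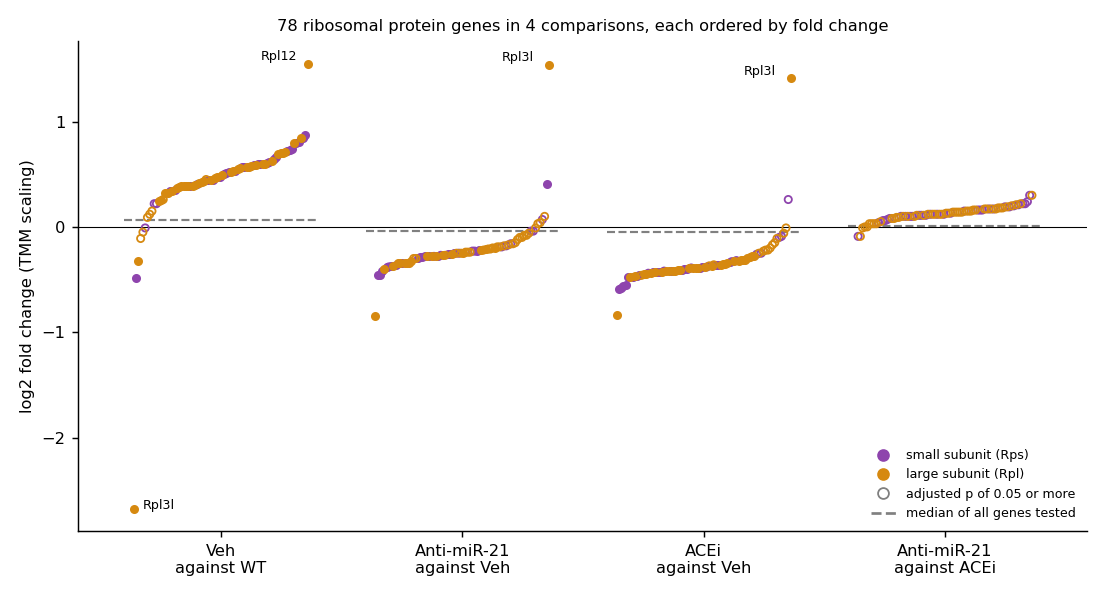
Log2 fold changes of the 78 ribosomal protein genes in the 4 comparisons after TMM scaling. Each point is a gene, ordered from low to high within a comparison, purple for the small and orange for the large subunit; filled points have an adjusted p under 0.05 and open points do not, and the dashed line is the median of all genes tested. Most members lie above the line in Veh against WT (median 0.48) and below it under both treatments (-0.25 and -0.38), and Rpl3l goes the other way.

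The size of these changes depended on how the libraries were scaled. TMM gave the Veh libraries factors of 1.12 to 1.26 and the WT libraries 0.771 to 0.85, so that it lowered Veh values against WT. With library totals alone, 76 of the 78 members had risen in Veh and 1 had fallen, against 65.9% and 15.2% of all genes, and their log2 fold changes had a median of 1.07. Of all genes called in that comparison, 81.2% were then higher and not 53.4%, and the corresponding shares were 20% and not 48.6% with Anti-miR-21 and 20.5% and not 52.4% with ACEi. The median of all genes was 0.65 under that scaling, so the members stood 0.41 above it. They stood 0.41 above it after TMM scaling, too, and after median-of-ratios and upper-quartile scaling and with totals outside the mitochondrial genome. A change of scaling shifts all genes of a library nearly alike, so this distance could hardly differ between scalings and is no check on the result. Between the flow cells it did differ, at 0.57 in cell A alone and 0.13 in cell B alone. Under the treatments the same limit applies. With Anti-miR-21 the members lay 0.20 to 0.21 below the median of all genes in these 5 scalings, and with ACEi 0.33 to 0.34 below. With library totals alone, 74 members were lower with Anti-miR-21 (against 55.9% of all genes) and 72 with ACEi (against 41.9%), and 1 was higher with each (against 14% and 10.8%).

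The scaling also set where the treated mice stood against WT. By share of counts and after library totals, all treated mice lay above all WT mice. After TMM scaling the median log2 CPM of the members overlapped with WT, at 7.26 to 7.49 in WT, 7.40 to 7.85 with Anti-miR-21 and 7.31 to 7.73 with ACEi. Whether the treated groups differ from WT was not tested.

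**Figure D3:**
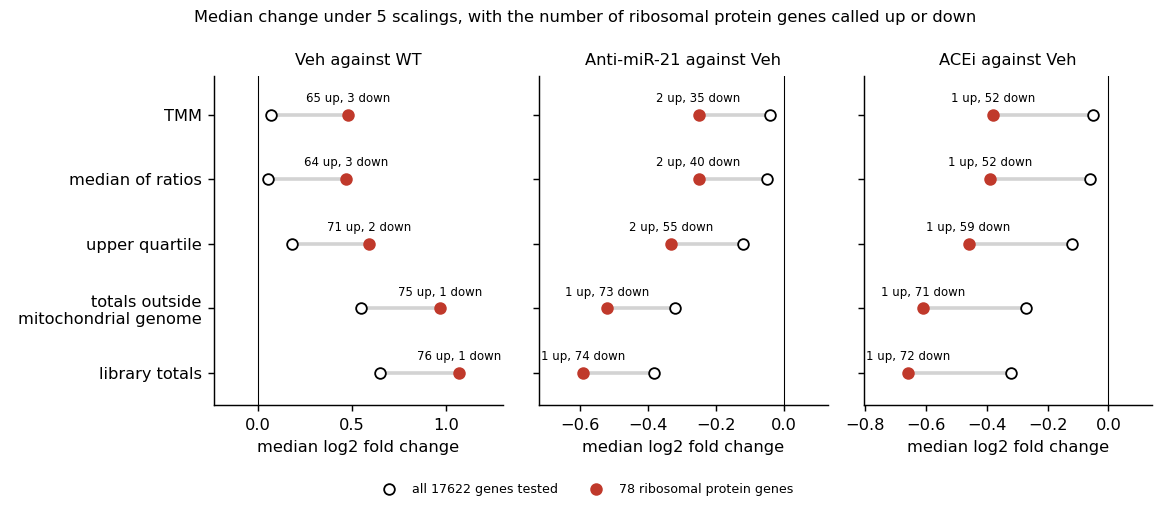
Median log2 fold change of the 78 ribosomal protein genes (filled) and of all 17622 genes tested (open) under 5 scalings of the libraries, for Veh against WT and for each treatment against Veh. The figures beside the points count the members called higher and lower. In Veh against WT the medians go from 0.48 and 0.07 with TMM to 1.07 and 0.65 with library totals. Because a scaling shifts all genes nearly alike, they move together and lie 0.41 apart in each.

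Levels can be compared between genes only per length, and for this the deposited FPKM were used (fragments per kilobase of transcript, scaled to the library total), which come from another gene model and were not rescaled by TMM. In WT mice the mean FPKM of the 80 genes had a median of 249 with quartiles at 173 and 353, and 62 of them were among the 500 entries with the highest FPKM. In Veh mice the median was 531 and 75 were among the highest 500. With Anti-miR-21 and ACEi the medians were 347 and 334. Averaged over all 20 mice the highest levels were those of Rplp1 (1003 FPKM), Rpl10 (882 FPKM) and Rps12 (813 FPKM). The lowest above 0 were those of Rpl39l (0.0336 FPKM), Rpl3l (1.27 FPKM) and Rps15a (33.8 FPKM). The Rps15a entry of that model is 5134 bases long. The authors flagged 29 of the 80 entries as confounded with other genes and 47 as not, and 4 had no flag.

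The paralogues Rpl3l and Rps27l differed from the family. Rpl3l replaces Rpl3 in ribosomes of heart and skeletal muscle. In WT kidney it had 3.43, 1.56, 3.04, 3.15 and 3.94 CPM, or 38 to 94 counts. In Veh mice it had 0.11 to 0.802 CPM, or 4 to 26 counts, and no Veh mouse overlapped a WT mouse. With Anti-miR-21 it had 0.804 to 2.36 CPM and with ACEi 1.05, 1.54 and 1.16 CPM, all above the Veh mice. The log2 fold change was -2.68 (SE 0.38, adjusted p = 2e-06, edgeR) in Veh against WT. It was 1.54 (SE 0.37, adjusted p = 0.00127) with Anti-miR-21 and 1.41 (SE 0.43, adjusted p = 0.0134) with ACEi, where it did not pass without the mouse A13 (1.24). The parent Rpl3 moved the opposite way, by 0.70, -0.40 and -0.43, each past the threshold. The level of Rpl3l was low throughout, at 1.04% ± 0.307 (SD, n = 5) of the FPKM of Rpl3 in WT and 0.0918% ± 0.0543 (SD, n = 6) in Veh.

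Rps27l is a p53-inducible paralogue of Rps27. Its WT mice had 86.8, 78.6, 86.1, 88.8 and 96.6 CPM after TMM scaling and its Veh mice 51.3 to 74.2 CPM, without overlap. The Anti-miR-21-treated mice had 65.8 to 89.4 CPM and the ACEi-treated mice 67.1, 76.0 and 79.2 CPM. The log2 fold change was -0.49 (SE 0.10, adjusted p = 0.00011, edgeR) in Veh against WT and 0.41 (SE 0.09, adjusted p = 0.00069) with Anti-miR-21, while the value with ACEi was 0.26 (adjusted p = 0.074). With library totals alone these were 0.09, 0.07 and -0.01, so the direction of Rps27l itself depended on the scaling. The parent Rps27 rose by 0.57 in Veh (adjusted p = 0.00064), and its values under the treatments, -0.29 and -0.32, did not pass.

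The ratio of a paralogue to its parent within a mouse does not depend on how libraries are scaled. Rps27l had 58.7% ± 2.67 (SD, n = 5) of the FPKM of Rps27 in WT mice, with a range of 55.7% to 62.9%. It had 27.8% ± 3.69 (SD, n = 6) in Veh mice, with a range of 23.3% to 33.7%, so that the ratio was lower in every Veh mouse than in any WT mouse. With Anti-miR-21 it had 45.5% ± 5.58 (SD, n = 6), from 36.5% to 51.4%, and with ACEi 43.8% ± 8.99 (SD, n = 3), from 33.6% to 50.4%. The Veh mice did not overlap the WT or the Anti-miR-21-treated mice, and the lowest ACEi mouse lay within the Veh range. On the log2 scale the ratio differed by -1.08 between Veh and WT (exact two-sided permutation test, p = 0.00433, adjusted p = 0.00866 over 8 tests of 2 pairs). It differed by 0.71 between Anti-miR-21 and Veh (exact permutation p = 0.00216, adjusted p = 0.00866) and by 0.64 between ACEi and Veh (exact permutation p = 0.0476, adjusted p = 0.0635). The ratio of Rpl3l to Rpl3 differed by -3.66, 2.12 and 2.09 in the same comparisons (exact permutation, adjusted p = 0.00866, 0.00866 and 0.0381). Between Anti-miR-21 and ACEi the differences were 0.07 and 0.03 (exact permutation, adjusted p = 0.816 and 0.929).

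Of the remaining paralogues, Rpl39l was counted at a mean of 0.35 per mouse and Rpl10l at 0, beside parents Rpl39 and Rpl10 at 398 and 882 FPKM. Rpl39 rose in Veh by 0.70 (SE 0.13) and fell with Anti-miR-21 (-0.34), and its value with ACEi was -0.37 (adjusted p = 0.0542). Rps4l, annotated as a pseudogene, is not among the 80 genes.

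**Figure D4:**
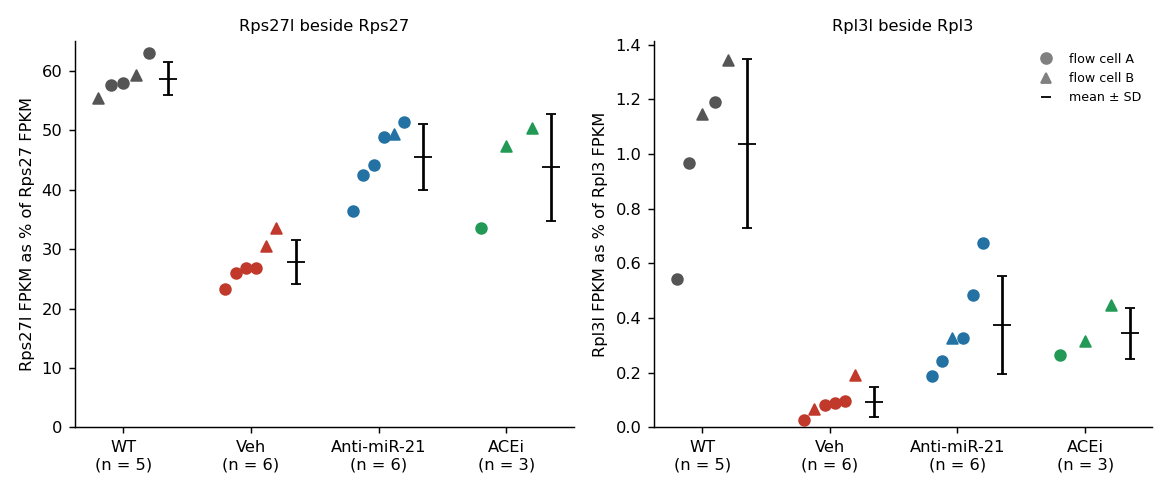
FPKM of Rps27l as a percentage of Rps27 (left) and of Rpl3l as a percentage of Rpl3 (right) in each mouse. Circles are libraries of flow cell A, triangles of flow cell B, and the bars give the mean ± SD of each group. Rps27l stands at 55.7% to 62.9% of Rps27 in WT and 23.3% to 33.7% in Veh, with the treated mice mostly between.

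Ribosomal protein genes have many processed pseudogenes, and reads can be divided between a gene and its copies. At least 1 annotated pseudogene with at least 90% identity over at least 200 bases, or with the member's name, was found for 72 of the 80 members, 885 pseudogenes in all. For 50 members under 5% of the counts of gene and pseudogenes together lay on pseudogenes. For 15 members over 50% did. In Rpl12 94.4% of these counts lay on pseudogenes, in Rpl5 93.7%, in Rpl10 86.3% and in Rps6 82.3%. Rps9 and Rpl3l had 0 matched pseudogenes, and in Rps27l 0.00684% of these counts lay on pseudogenes. Adding pseudogenes could therefore hardly change their log2 fold changes between Veh and WT, which stayed the same to 2 decimals.

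Of the members, Rpl5 and Rpl15 turned direction between Veh and WT when pseudogenes were added. Rpl15, with 71.5% of the counts on pseudogenes, had a log2 fold change of -0.11 alone, which did not pass, and 0.32 with them. Rpl5 (chr5:107900502-107909005, sharing exon bases with Fam69a) had passed the test. Counted alone, it had 28.9 to 42.8 CPM in WT and 22.7 to 36.4 CPM in Veh, which overlap, and a log2 fold change of -0.32 (adjusted p = 0.0129, edgeR). Its pseudogenes took 90.8% ± 1.31 (SD, n = 5) of the counts in WT and 94.9% ± 0.345 (SD, n = 6) in Veh. With pseudogene counts added the log2 fold change was 0.54, and on log2(FPKM + 1) it was 1.10. By FPKM, Rpl5 had 153 to 160 in WT and 272 to 413 in Veh, without overlap. The direction of Rpl5 is therefore uncertain in the counts, and without the WT mouse A18 its call was lost (-0.24). For Rpl12 the change was 1.02 with pseudogenes added instead of 1.55, and for Rpl10 it was 0.24 instead of 0.84. For Rps6 it was 0.49 in Veh, -0.24 with Anti-miR-21 and -0.35 with ACEi. The pseudogene part of Rps6 varied between ACEi mice, at 79.6% ± 12.7 (SD, n = 3), while its FPKM there was 309 ± 27.2 (SD, n = 3). With ACEi, Rps16 (29.3% on pseudogenes) had -0.48 with pseudogenes added instead of -0.44, and Rpl10 -0.33 instead of -0.20. Over the family, with pseudogenes added, 66 members were higher (84.6%, against 39.3% of all genes) and 2 lower (2.56%, against 34.1%) in Veh, with a median of 0.48. With Anti-miR-21 46 were lower (59.0%, against 30.2% of all genes) and with ACEi 62 (79.5%, against 18.9%).

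**Figure D5:**
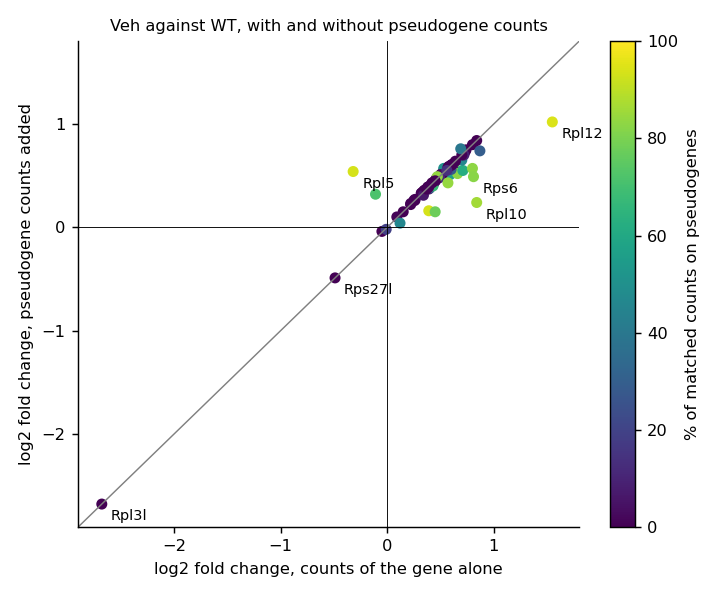
Log2 fold change of each ribosomal protein gene in Veh against WT, from the counts of the gene alone (horizontal) and with the counts of its pseudogenes added (vertical). The colour gives the percentage of these counts that lay on pseudogenes, and the grey line marks equal values. Genes with few pseudogene counts lie on the line, Rpl5 moves from -0.32 to 0.54, and Rpl12 and Rpl10 move from 1.55 to 1.02 and from 0.84 to 0.24.

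Other parts of the ribosome that the symbol rule leaves out depended on the scaling, with 3 of 7 higher and 2 lower in Veh after TMM scaling and 6 higher and 0 lower with library totals. Of all genes tested, 39.0% were higher and 34.0% lower in Veh after TMM scaling, and 65.9% and 15.2% with library totals. Rps3a1 and Rack1, the scaffold of the small subunit, rose in Veh by 0.65 and 0.67 and fell under both treatments. Rpl22l1, the paralogue of Rpl22, rose by 0.42. Rpl36al and Rpl7l1 fell by 0.43 and 0.33 on the log2 scale after TMM scaling but had 0.16 and 0.25 with library totals, and Fau, which encodes a fusion of a ribosomal protein with a ubiquitin-like sequence, had a value of -0.13 that did not pass after TMM scaling, against 0.45 with library totals. Of 14 translation factors and other genes known for a TOP tract, 7 were higher and 0 lower in Veh, with a median of 0.16, and with library totals all 14 were higher. These included Hnrnpa1 (1.21), Npm1 (0.94), Eif3f (0.71) and Pabpc1 (0.63), whereas Eef2 (-0.14) and Eif4b (0.06) did not pass after TMM scaling. With Anti-miR-21 5 of the 14 were lower and 1 was higher, and with ACEi 5 were lower and 0 higher. Of all genes, 30.5% were lower and 28.8% higher with Anti-miR-21, and 19.1% lower and 21.0% higher with ACEi. None of the lists was tested against these shares.

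Genes that build ribosomes moved in both directions after TMM scaling. Of 26 biogenesis factors 7 were higher and 3 lower in Veh, with a median of 0.01, where library totals gave 24 higher and 1 lower. Of all genes, 39.0% were higher and 34.0% lower in Veh after TMM scaling, and 65.9% and 15.2% with library totals. After TMM scaling 6 of the biogenesis factors were higher and 4 lower with Anti-miR-21, and 2 were higher and 1 lower with ACEi. Of all genes, 28.8% were higher and 30.5% lower with Anti-miR-21, and 21.0% and 19.1% with ACEi. After TMM scaling the biogenesis factors were thus called less often than all genes in each of these comparisons. The genes named from these lists were chosen after their values were seen. The box C/D snoRNP proteins Nop56 and Nop58 rose by 0.70 and 0.51, and nucleolin (Ncl) rose by 0.30. Among the proteins of box H/ACA snoRNPs, Gar1 rose by 0.79 and Dkc1 by 0.22 while Nhp2 and Nop10 fell by 1.21 and 0.68, although with library totals Nop10 did not pass (-0.10). Of 12 genes that belong to or act with mTORC1 or Myc, 3 were higher in Veh and 9 lower after TMM scaling, but 10 were higher and 1 was lower with library totals. Myc, which drives transcription of ribosomal genes, rose by 2.40, and Eif4ebp1, a translational repressor, by 1.55, and both rose with library totals, too. Mtor fell by 1.96 and rose with Anti-miR-21 (1.16) and ACEi (0.98), with the same directions under library totals, whereas Larp1 fell by 0.28 after TMM scaling and rose by 0.31 with library totals.

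Markers of kidney and immune cell types changed in the same comparisons, and in bulk RNA fewer cells of a type and less RNA per cell cannot be told apart. All 5 proximal tubule markers fell in Veh, from a summed level of 11684 to 14981 CPM in WT to 1291 to 3628 CPM. With treatment they stood at 6392 to 10656 CPM (Anti-miR-21) and 6647 to 8707 CPM (ACEi). All 6 macrophage markers rose in Veh, from 146 to 163 CPM to 945 to 1204 CPM, and stood at 400 to 623 CPM with Anti-miR-21 and 517 to 617 CPM with ACEi. All 5 fibroblast markers rose from 141 to 340 CPM to 2633 to 3369 CPM, with 581 to 1242 CPM with Anti-miR-21 and 1350 to 1490 CPM with ACEi. Of 5 markers of other nephron segments 1 rose and 2 fell in Veh, and 4 and 3 rose with Anti-miR-21 and ACEi. Of all genes, 39.0% rose and 34.0% fell in Veh, and 28.8% and 21.0% rose with Anti-miR-21 and ACEi. All 5 T cell markers rose as well, from 2.09 to 3.07 CPM to 12.7 to 36.4 CPM, as did 4 of 5 B and plasma cell markers and 4 of 5 adipocyte markers, and all 3 erythroid markers fell. These directions in Veh were the same with library totals, except that of the other nephron segments 2 rose and 1 fell. Adipocyte markers ranged from 0.592 to 410 CPM in Veh and reached at most 18.3 CPM in WT, and the extraction text of the labels names adipose tissue although the labelled tissue is kidney. No marker was at 0 in every mouse of a group. The summed levels of tubule, macrophage and fibroblast markers lay between WT and Veh in both treated groups, as did the share of the ribosomal protein genes, and their part in it was not tested. By group means a single marker of these lists did not: Dcn had a mean of 186 CPM with Anti-miR-21 and 181 CPM in Veh (log2 fold change 0.04, adjusted p = 0.852, edgeR), against 56.6 CPM in WT.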

How the data were processed

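Whole kidneys of 20 mice were sequenced as paired-end reads of total RNA. Reads were aligned by the authors with OmicSoft's OSA4 to the mouse build GRCm38, and the authors deposited estimated counts (expected counts) per Ensembl gene, without normalization between libraries. The authors also deposited FPKM values on another gene model, normalized for length and library total. Of the positive deposited counts 29.1% are not whole, and they were rounded. The FPKM table holds 3 further libraries, which were not used. Symbols, biotypes and coordinates came from GENCODE M21 on GRCm38, which matched 98.9% of the 47069 gene IDs, and promoters from RefSeq. Members and lists were chosen with earlier results of these data known.

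Genes were filtered with filterByExpr (minimum count 10, minimum total 15), scaled by TMM and tested by quasi-likelihood in edgeR 4.0.16 (R 4.3.3). Each group had 1 coefficient in a model of all 20 mice, and p-values were adjusted by Benjamini-Hochberg across all genes (threshold 0.05). Replicates are separate mice. A gene of the 80 was named if it was among the 3 highest or 3 lowest log2 fold changes past the threshold in a comparison, among the 3 highest or the lowest 3 mean FPKM above 0, a paralogue or its parent, or on a list of genes with roles outside the ribosome or in the stalk. Medians, shares and lists were described without a test. The ratios of paralogues were tested with exact permutation tests over mice, a choice made after seeing the data, and adjusted over 8 tests. Pseudogenes were matched with BLAST 2.17.0 at a minimum identity of 90% over 200 bases. Alternatives were the scaling, DESeq2 1.42.0, limma 3.58.1 on log2(FPKM + 1) and log2(FPKM + 0.1), the filter, flow cell, the groups fitted, pseudogene counts and each mouse left out. Flow cell B alone, pseudogenes matched by sequence and the related gene lists under library totals were also alternatives chosen after seeing the data. The script for edgeR was checked on simulated data in which few genes changed, as many up as down. That check cannot speak to the scaling, because most genes were called in Veh against WT. With a median total of 29026772 counts per mouse, the spread between mice rather than counting limits the precision, except for Rpl3l. Single-gene values of some genes are not reported here.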

Additional observations from a re-analysis of the deposited data

How the results depend on the processing

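With library totals, the members lower in Veh against WT were 1 and the median 1.07; with Anti-miR-21 1 was higher and 74 lower (median -0.59), and with ACEi the median was -0.66. With totals outside the mitochondrial genome these were 1 and 0.97 in Veh, and 1, 73 and -0.52 with Anti-miR-21. By limma on log2(FPKM + 1) and on log2(FPKM + 0.1) alike the members' values were 1 and 1.05 in Veh, 1, 76 and -0.59 with Anti-miR-21, and a median of -0.65 with ACEi. On log2(FPKM + 1), 12.2% of all entries were lower in Veh, and 11.1% were higher and 46.9% lower with Anti-miR-21. Upper-quartile scaling gave 55 lower with Anti-miR-21. Requiring 10 counts in every mouse removed Rpl3l and left 1 higher with Anti-miR-21 and 0 with ACEi, against 32.9% and 25.6% of all genes.

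Flow cell A alone gave a median of 0.68 in Veh and 54 lower with Anti-miR-21. Flow cell B alone gave 7 higher and a median of 0.19 in Veh, and 0 higher and 0 lower with ACEi. With only the 2 groups compared, 30 were lower with ACEi. With each mouse left out in turn, 16 to 54 members were lower with Anti-miR-21, and with ACEi 18 to 65 were lower and 0 to 2 higher. Of all genes, 27.8% and 28.4% were lower at these ends with Anti-miR-21, and 13.8% and 14.3% with ACEi. Where 0 members were higher with ACEi, 16.6% of all genes were. The cause of these differences was not tested.

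Of 1572 values of 21 named genes under other settings, 1345 kept direction and side of the threshold, 82 lost and 120 gained a call and 25, in 3 genes, turned direction. Rps27l in Veh against WT was 0.09 with library totals and 0.10 in both FPKM fits, and with ACEi -0.01 in these 3. Rpl5 in Veh was 0.27 with library totals, 0.17 outside the mitochondrial genome, 0.54 with pseudogenes and 1.10 in both FPKM fits, and with Anti-miR-21 -0.25, -0.19, -0.27 and -0.60. Rpl5 with ACEi was 0.00 without a filter and with flow cell as a term, 0.14 in flow cell B, and -0.05 to 0.10 with mice left out, which gave -0.84 to 0.21 for Rps6. Between Anti-miR-21 and ACEi, the log2 ratio of Rpl3l to Rpl3 was -0.01 on counts and -0.16 to 0.24 with mice left out, and that of Rps27l to Rps27 -0.11 to 0.18.

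No paired analysis was possible because the replicate names are those of single mice and no groups share them. Depth limits Rpl3l, with 4 to 94 counts per mouse. The ACEi group had the fewest mice, 3, with 2 of them on flow cell B. Libraries are of single mice, so the p-values measure the spread between mice.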
